A study of Mus musculus with 4 samples.

Results

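The cadherins and protocadherins described here were every gene of the count tables whose symbol was Cdh followed by a number or began with Pcdh, which gave 92 genes of 32286. The RNA came from single nuclei of snap-frozen hemispheres, taken from the brains of C57BL/6 mice on postnatal day 14. The libraries labelled Ago2 KO (n = 2) came from Slc17a6-Cre, Ago2 flox/flox mice, and the libraries labelled Ago2 WT (n = 2) from Slc17a6-Cre, Ago2 wt/wt mice, so both groups carried the Cre driver and no mice received a treatment. Slc17a6-Cre acts in neurons that use the vesicular glutamate transporter VGLUT2, and Ago2 is an Argonaute protein that holds microRNAs and represses the mRNAs they pair with. Whether each library held 1 animal or several is not given in the sources used here, so every p-value measures the spread between these libraries. The comparison asks how adhesion genes of neurons, glia and vessels stand when Ago2 is deleted in these neurons.

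Cadherins are single-pass membrane proteins whose outer calcium-binding repeats stick to cadherins of a neighbouring cell, mostly of the same kind. Classical cadherins reach the actin skeleton through catenins and hold adherens junctions and synapses together. Type I members such as E-cadherin and N-cadherin bind strongly and are widespread, while the many type II members are expressed in partly overlapping groups of neurons and are known for sorting axons to layers and partners. Protocadherins do not bind catenins in the classical way. The non-clustered delta protocadherins work in axon growth and synapse formation, and the clustered alpha, beta and gamma genes give each neuron a surface identity used in self-avoidance.

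Ago2 itself was not lower in glutamatergic nuclei of the KO-labelled libraries. It stood there at 107 and 102 CPM (a gene's UMI count scaled to 1000000 UMIs of its class and library) in KO-labelled libraries, against 72.5 and 78.9 CPM in WT-labelled libraries, with a log2 change of 0.41 (SE 0.16, edgeR quasi-likelihood adjusted p = 0.920). In the small class with the most Slc17a6, Ago2 stood at 40.3 and 44.7 CPM in KO-labelled libraries and at 42.4 and 72.0 CPM in WT-labelled libraries, which overlapped, on 47 UMIs in all. That class held 14 and 19 nuclei in KO-labelled and 20 and 37 in WT-labelled libraries and was too small to test. Which exons were floxed is not given in the sources used here. A 3′ count outside the deleted stretch does not test the deletion. Directions below therefore belong to libraries as labelled, and this holds for every comparison of KO-labelled with WT-labelled libraries.

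The KO-labelled libraries held 10845009 and 11439733 UMIs and the WT-labelled libraries 13107920 and 29317266 UMIs. After filtering, 15511 nuclei remained, 3226 and 3174 from KO-labelled and 3255 and 5856 from WT-labelled libraries, with medians of 2315 to 3086.5 UMIs. WT-labelled replicate 1 stood apart in that 17.8% of its barcodes exceeded the mitochondrial limit, against 5.64% to 8.78% in the other libraries, and pairs of libraries shared 3 to 10 barcodes. Classes of nuclei were named from marker genes with all 92 genes left out of the clustering. The names mean astrocyte-like, oligodendrocyte-like and so on. OPC stands for oligodendrocyte precursor cell. The glutamatergic class is the cortex-like class marked by Slc17a7, and cluster 7 is a neuronal cluster of 1619 nuclei that the marker lists did not name. Levels were ranked over 20 classes, and a class of cycling nuclei of mixed lineages (19 and 14 nuclei in KO-labelled, 21 and 58 in WT-labelled libraries) was left out of the ranking. Cerebellar granule nuclei were present although the design text speaks of cortex. A level is the CPM of a gene within its class and library, without correction for transcript length, so levels are read along a gene and not between genes.

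Of the 92 genes, 73 had at least 1 UMI in the nuclei kept, and together they took 762504 UMIs, or 1.34% of all. The 4 delta-1 protocadherins (Pcdh1, Pcdh7, Pcdh9 and Pcdh11x) took 442911 of these UMIs and the 13 type II cadherins 171785. The 5 type I cadherins had 30225 UMIs and the 5 cadherins outside these types 30600, nearly all of them from Cdh13. The 5 delta-2 protocadherins had 18056 UMIs, and the 3 remaining non-clustered protocadherins had 66083, nearly all from Pcdh15. The clustered genes had few UMIs. For alpha and gamma genes, which share their last exons within each cluster, few UMIs per gene are not read as low expression. The 22 beta genes had 2659 UMIs, the 14 alpha genes 118 and the 21 gamma genes 67. A total of 35 genes passed the filter on low counts in at least 1 class, 30 of them outside the clusters, and the other 57 are described by their counts alone.

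**Figure D1:**
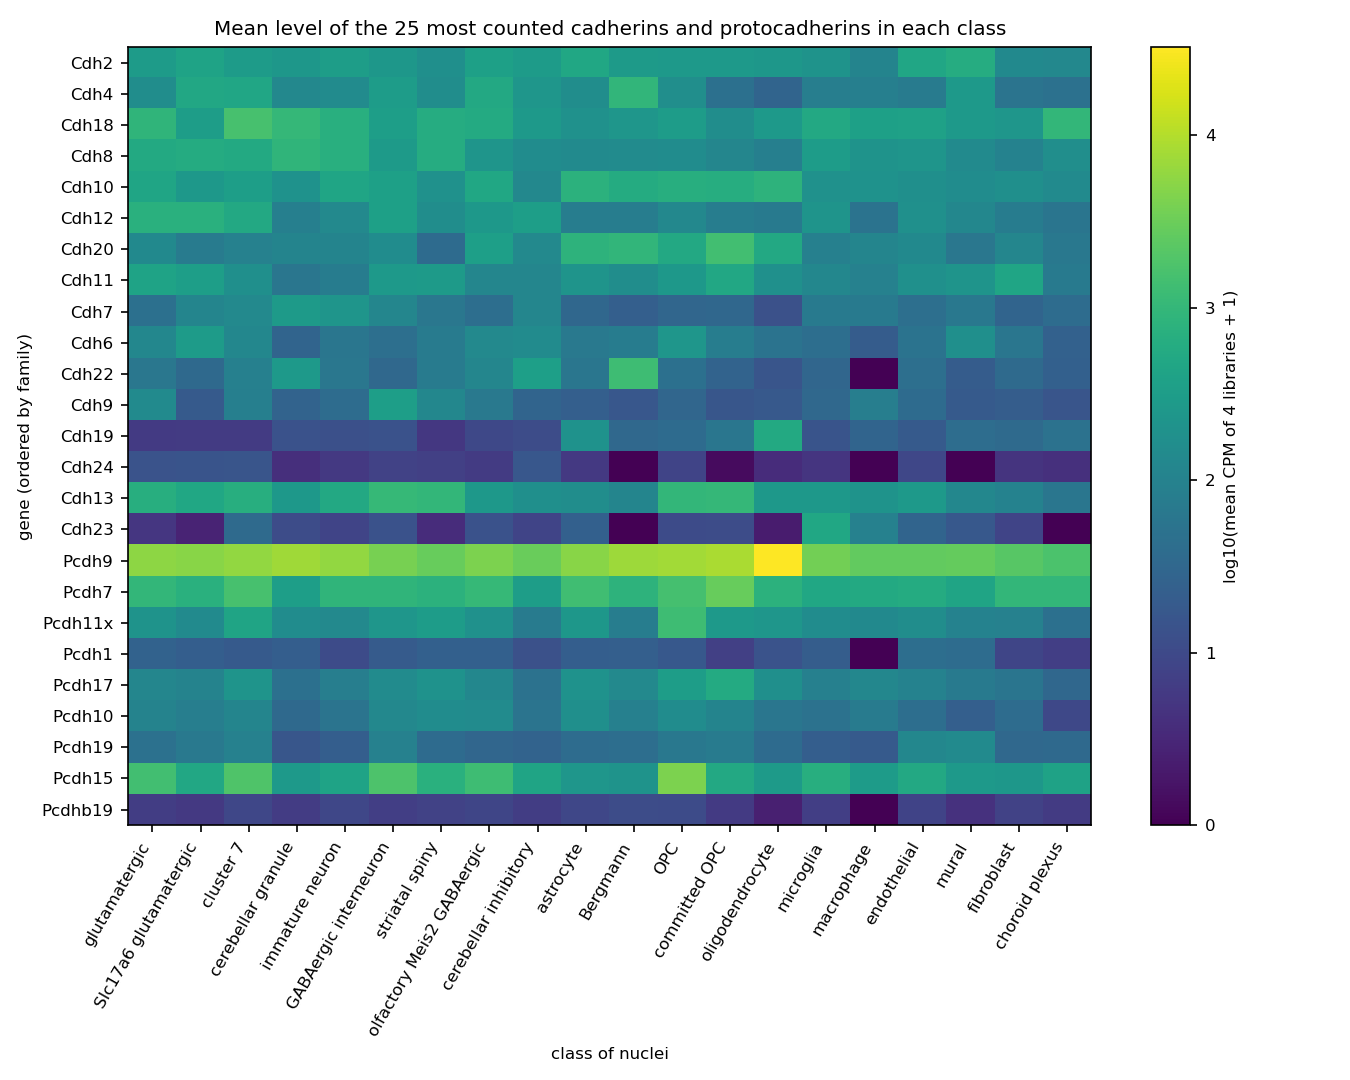
Colour gives log10 of the mean CPM of the 4 libraries plus 1 for the 25 genes with the most UMIs (down) in each of 20 classes of nuclei (across). Pcdh9 is bright in every class and brightest in oligodendrocytes at 32521 CPM, while Cdh23 stands out in microglia and Cdh19 in oligodendrocytes.

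Of the 4 delta-1 protocadherins, 3 were highest in glia of the oligodendrocyte line, each in a different class. Pcdh9, a protocadherin of cortical circuits, peaked in oligodendrocytes, Pcdh7 in committed OPCs and the X-linked Pcdh11x in OPCs. For Pcdh7 this holds among whole classes, since a cluster within the fibroblast class overlapped committed OPCs. Pcdh15, a cadherin of the inner-ear tip link that is grouped apart from the delta genes, also peaked in OPCs. No test was run between classes, because classes and levels come from the same nuclei.

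Pcdh9 stood at 25903 and 35189 CPM in oligodendrocytes of KO-labelled libraries and at 32088 and 36905 CPM in those of WT-labelled libraries. The next class, committed OPCs, averaged 8613 CPM and no library reached the oligodendrocyte range, and the lowest class, choroid plexus, still averaged 1725 CPM. Pcdh9 thus had the most UMIs of all 92 genes, 363938, and was found in each of the 20 classes.

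Pcdh15 stood at 4048 and 4455 CPM in OPCs of KO-labelled libraries and at 4062 and 4375 CPM in those of WT-labelled libraries. Its next classes were cluster 7 at 1824 CPM and GABAergic interneurons at 1788 CPM, whose ranges overlapped each other but not that of OPCs. Cycling nuclei, which were not ranked, averaged 1918 CPM of Pcdh15 and 584 CPM of Pcdh11x. Pcdh11x was also highest in OPCs, with 1195 and 1405 CPM in OPCs of KO-labelled libraries and 1142 and 1415 CPM in those of WT-labelled libraries, against 429 CPM in cluster 7 and 314 CPM in striatal spiny neurons. Both genes were therefore highest in precursors, and Pcdh15 averaged 207 CPM in Bergmann glia, its lowest class.

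Pcdh7, which is known to bind a regulator of protein phosphatases, stood at 2426 and 3225 CPM in committed OPCs of KO-labelled libraries and at 2644 and 3472 CPM in those of WT-labelled libraries. Cluster 7 (1553 CPM), OPCs (1502 CPM) and astrocytes (1336 CPM) followed. The range of OPCs overlapped that of cluster 7 and that of astrocytes, while cluster 7 and astrocytes did not overlap. The lowest level of Pcdh7 was in cerebellar inhibitory neurons at 324 CPM. Fibroblasts were ranked as a whole, but their smaller cluster (84 nuclei) averaged 2838 CPM of Pcdh7. The range of that cluster, 2315 to 3394 CPM, overlapped that of committed OPCs. Pcdh1 was sparse, and its mean of 40.9 CPM in endothelial nuclei rested on 28 UMIs and overlapped the 37.8 CPM of mural nuclei.

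The type II cadherins divided neuron classes and glial classes among themselves. Cdh8 was highest in cerebellar granule neurons, Cdh12 in the glutamatergic classes, Cdh9 in GABAergic interneurons and Cdh18 in cluster 7. Cdh20, Cdh10 and Cdh19 were highest in glia. Cdh11, the cadherin of mesenchymal cells, was shared between committed OPCs and fibroblasts, and Cdh5, the adhesion protein of the endothelial junction, was read in endothelial nuclei and in fibroblasts.

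Cdh18 stood at 1448 and 1746 CPM in cluster 7 of KO-labelled libraries and at 1622 and 1591 CPM in that of WT-labelled libraries, above the cerebellar granule mean of 1019 CPM. Within the glutamatergic class it separated layers. The cluster led by deep-layer genes (381 nuclei) averaged 3132 CPM and the cluster led by upper-layer genes (1592 nuclei) averaged 374 CPM. Cdh12 ran the other way, with 323 CPM in the deep-layer cluster and 827 CPM in the upper-layer cluster, and so did Cdh8, a cadherin of sensory and striatal circuits, with 204 and 640 CPM. These subclusters were looked at after the class values were known.

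Cdh8 averaged 888 CPM in cerebellar granule neurons and 698 CPM in immature neurons, and their ranges did not overlap. Cdh12 averaged 733 CPM in the glutamatergic class and 732 CPM in the Slc17a6 class, which the libraries did not separate. Cdh7 stood at 320 and 311 CPM in cerebellar granule neurons of KO-labelled libraries and at 236 and 263 CPM in those of WT-labelled libraries, and immature neurons overlapped them at 220 CPM. Cdh6, which in mouse retina guides axons to their targets, averaged 298 CPM in the Slc17a6 class and 233 CPM in OPCs, with overlapping ranges.

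Cdh9, known in mouse hippocampus for matching mossy fibres to their target cells, stood at 282 and 176 CPM in GABAergic interneurons of KO-labelled libraries and at 472 and 399 CPM in those of WT-labelled libraries. Glutamatergic nuclei followed at 143 CPM, and their highest library, at 185 CPM, exceeded the lowest interneuron library. Cdh24 had 504 UMIs in all and a highest class mean of 15.6 CPM among the 20 ranked classes, and it averaged 21.2 CPM in cycling nuclei on 9 UMIs.

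Cdh22 was highest in Bergmann glia. It stood at 1448 and 1943 CPM in Bergmann glia of KO-labelled libraries and at 1058 and 767 CPM in those of WT-labelled libraries, against 345 CPM in the next class, cerebellar inhibitory neurons. All 4 Bergmann libraries lay above every library of that next class, although the class held 114 nuclei and 301 UMIs of the gene.

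Cdh19, known from Schwann cells and their precursors, stood at 512 and 567 CPM in oligodendrocytes of KO-labelled libraries and at 469 and 625 CPM in those of WT-labelled libraries. Astrocytes followed at 202 CPM without overlap, and striatal spiny neurons were lowest at 4.35 CPM. Cdh20 stood at 1007 and 1553 CPM in committed OPCs of KO-labelled libraries and at 1570 and 1489 CPM in those of WT-labelled libraries, and Bergmann glia (917 CPM) overlapped them. Cdh10 averaged 812 CPM in oligodendrocytes and 803 CPM in astrocytes, which did not differ beyond their spread.

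Cdh11 averaged 499 CPM in committed OPCs and 452 CPM in fibroblasts, with overlapping ranges. Of the 2 fibroblast clusters, the smaller (84 nuclei) averaged 930 CPM of Cdh11 and the larger (327 nuclei) 324 CPM. Cdh5 stood at 66.1 and 148 CPM in endothelial nuclei of KO-labelled libraries and at 79.3 and 141 CPM in those of WT-labelled libraries, on 75 UMIs. Fibroblasts overlapped them, with 50.1 and 103 CPM in KO-labelled and 103 and 77.1 CPM in WT-labelled libraries, and the next class, oligodendrocytes, had 8.19 CPM. For Cdh5, the smaller fibroblast cluster averaged 113 CPM and the larger one 73.6 CPM. The endothelial genes Pecam1, Cldn5 and Flt1 stood there at 2.11, 23.5 and 6.32 CPM in the smaller cluster and at 7.67, 25 and 127 CPM in the larger one, and the part of endothelial RNA in Cdh5 was not tested.

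Among the type I cadherins, Cdh2 (N-cadherin, the cadherin of neural junctions and synapses) was broad, Cdh4 was highest in Bergmann glia, and Cdh1, Cdh3 and Cdh15 each had 1 class whose libraries all lay above the next class, with 159 of 249, 78 of 264 and 118 of 159 of their UMIs in it. Cdh2 averaged 622 CPM in mural nuclei, 485 CPM in astrocytes and 463 CPM in endothelial nuclei, with overlapping ranges, and its lowest class was macrophages at 107 CPM. Cdh4, called R-cadherin after the retina, stood at 834 and 1035 CPM in Bergmann glia of KO-labelled libraries and at 1058 and 728 CPM in those of WT-labelled libraries. Olfactory Meis2 GABAergic neurons followed at 536 CPM without overlap, and oligodendrocytes had 27.1 CPM.

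Cdh3 (P-cadherin, found in epithelia) stood at 92.5 and 149 CPM in choroid plexus of KO-labelled libraries and at 249 and 202 CPM in that of WT-labelled libraries, against 11.3 CPM in fibroblasts, the next class. Cdh1 (E-cadherin, the cadherin of epithelial junctions) stood at 89.5 and 163 CPM in fibroblasts of KO-labelled libraries and at 90.5 and 83.9 CPM in those of WT-labelled libraries, against 31.9 CPM in cerebellar inhibitory neurons. The smaller fibroblast cluster held most of it per UMI, at 327 CPM against 41.8 CPM in the larger cluster. Cdh15 (M-cadherin, known from muscle precursors) stood at 22.6 and 17.4 CPM in cerebellar granule neurons of KO-labelled libraries and at 11.7 and 15.4 CPM in those of WT-labelled libraries, and immature neurons followed at 3.22 CPM.

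**Figure D2:**
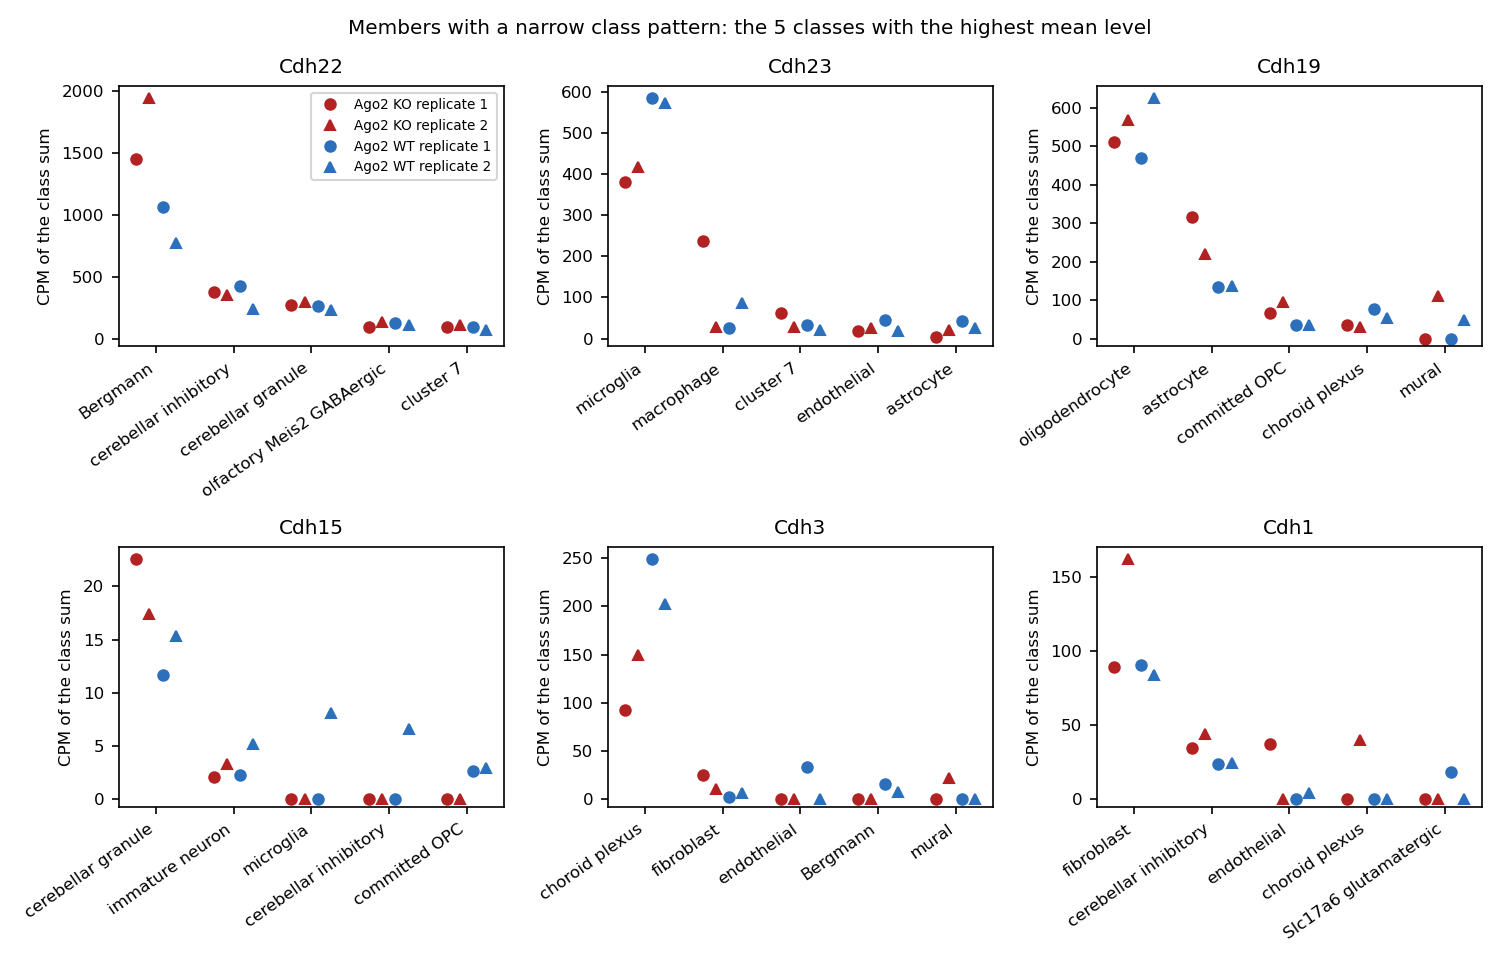
Each panel gives 1 gene in the 5 classes with its highest mean level, with CPM of the class sum on the vertical axis and 1 point per library (red, Ago2 KO-labelled; blue, Ago2 WT-labelled; circles, replicate 1; triangles, replicate 2). In every panel the leading class lies above the next class in all 4 libraries, as for Cdh3 in choroid plexus at 92.5 to 249 CPM.

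Cdh13 and Cdh23 lie outside the classical types. Cdh13 (T-cadherin, which is held by a lipid anchor and has no tail for catenins) averaged 1063 CPM in GABAergic interneurons, 1002 CPM in committed OPCs, 980 CPM in OPCs and 955 CPM in striatal spiny neurons, and these 4 ranges overlapped. Cdh23, the partner of Pcdh15 in the hair-cell tip link, stood at 382 and 418 CPM in microglia of KO-labelled libraries and at 586 and 573 CPM in those of WT-labelled libraries. The next class, macrophages, averaged 94.6 CPM with a range of 26.9 to 237 CPM. Vsir, on the strand opposite Cdh23, averaged 218 CPM in microglia, and how far its reads enter the Cdh23 count was not tested. Cdh16, Cdh17 and Cdh26 had 16, 5 and 18 UMIs.

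The delta-2 protocadherins were led by different classes. Pcdh17, known from synapses between cortex and basal ganglia, stood at 448 and 847 CPM in committed OPCs of KO-labelled libraries and at 463 and 519 CPM in those of WT-labelled libraries. OPCs followed at 318 CPM without overlap. Pcdh10, known for removing synapses after activity, averaged 175 CPM in astrocytes, 159 CPM in striatal spiny neurons and 155 CPM in OPCs, which overlapped. Pcdh19, an X-linked protocadherin known from epilepsy, averaged 142 CPM in mural and 123 CPM in endothelial nuclei, with overlapping ranges. Pcdh8 was highest in olfactory Meis2 GABAergic neurons at 16.6 CPM, and Pcdh18 in mural nuclei at 89.1 CPM on 23 UMIs. Pcdh12, a protocadherin of endothelial cells, had 18 of its 59 UMIs in endothelial nuclei, and Pcdh20 stayed at or below 7.25 CPM as a class mean.

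All 57 clustered genes lie on chromosome 18, and the beta genes made up most of what was counted. Pcdhb19, Pcdhb17 and Pcdhb16 had 392, 377 and 317 UMIs and were the most counted. Alpha and gamma genes share their last exons within each cluster, which a 3′ count cannot assign to 1 gene. Their counts per gene are therefore uncertain, and the 3 clusters are not compared in expression. Pcdha1, Pcdhac2, Pcdhga1, Pcdhgc3 and Pcdhga6 had 103, 7, 54, 3 and 2 UMIs. The beta genes summed to 40.3 and 28.5 CPM in glutamatergic nuclei of KO-labelled libraries and to 42.9 and 38.5 CPM in those of WT-labelled libraries. In cluster 7, the sum was 52.5 and 53.4 CPM in KO-labelled and 57.1 and 60.3 CPM in WT-labelled libraries, so both KO-labelled libraries lay below both WT-labelled libraries. Over all classes the beta sum averaged from 6.98 CPM in macrophages to 72.7 CPM in mural nuclei. The macrophage value was 1 UMI of Pcdhb17, and 24.9 CPM of the mural value came from 1 UMI of Pcdhb6. These 2 classes are therefore not ranked by it.

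Of the 26 genes with at least 50 UMIs in their highest class, 14 had a highest class whose 4 libraries lay above all 4 of the next class, and 10 averaged at least 2-fold above it. Committed OPCs were the highest class for 4 of these genes, and oligodendrocytes and cerebellar granule neurons for 3 each.

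Genotype was then compared within each class, with counts summed per library. No gene of the family passed an adjusted p of 0.05 in any of 16 classes, over 324 pairs of gene and class (edgeR quasi-likelihood), and DESeq2 also called 0. Over all genes, 0.0335% of 101381 pairs passed. At an unadjusted p under 0.05, 45 member pairs (13.9%) were counted, against 5.56% of all pairs. With DESeq2 these shares were 6.17% and 1.42%, and without a filter on low counts they were 8.15% and 4.23%. By class, the members with such a p are given here with the share of all genes tested in the class that had one. They numbered 5 of 26 in glutamatergic nuclei (5.36%), 2 of 24 in cerebellar granule neurons (6.26%) and 0 of 20 in immature neurons (5.96%). In GABAergic neurons they numbered 4 of 19 in GABAergic interneurons (4.33%), 5 of 21 in striatal spiny neurons (5.51%), 3 of 22 in olfactory Meis2 GABAergic neurons (4.28%) and 2 of 18 in cerebellar inhibitory neurons (5%), and they came to 1 of 32 in cluster 7 (3.99%). In glia they numbered 4 of 23 in astrocytes (8%), 1 of 9 in Bergmann glia (6.74%), 1 of 21 in OPCs (5.92%), 3 of 18 in committed OPCs (5.61%), 7 of 17 in oligodendrocytes (6.4%) and 3 of 16 in microglia (6.11%). In endothelial nuclei they numbered 0 of 16 (4.69%) and in fibroblasts 4 of 22 (6.04%). The smallest adjusted p was 0.138, for Cdh13 in oligodendrocytes.

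**Figure D3:**
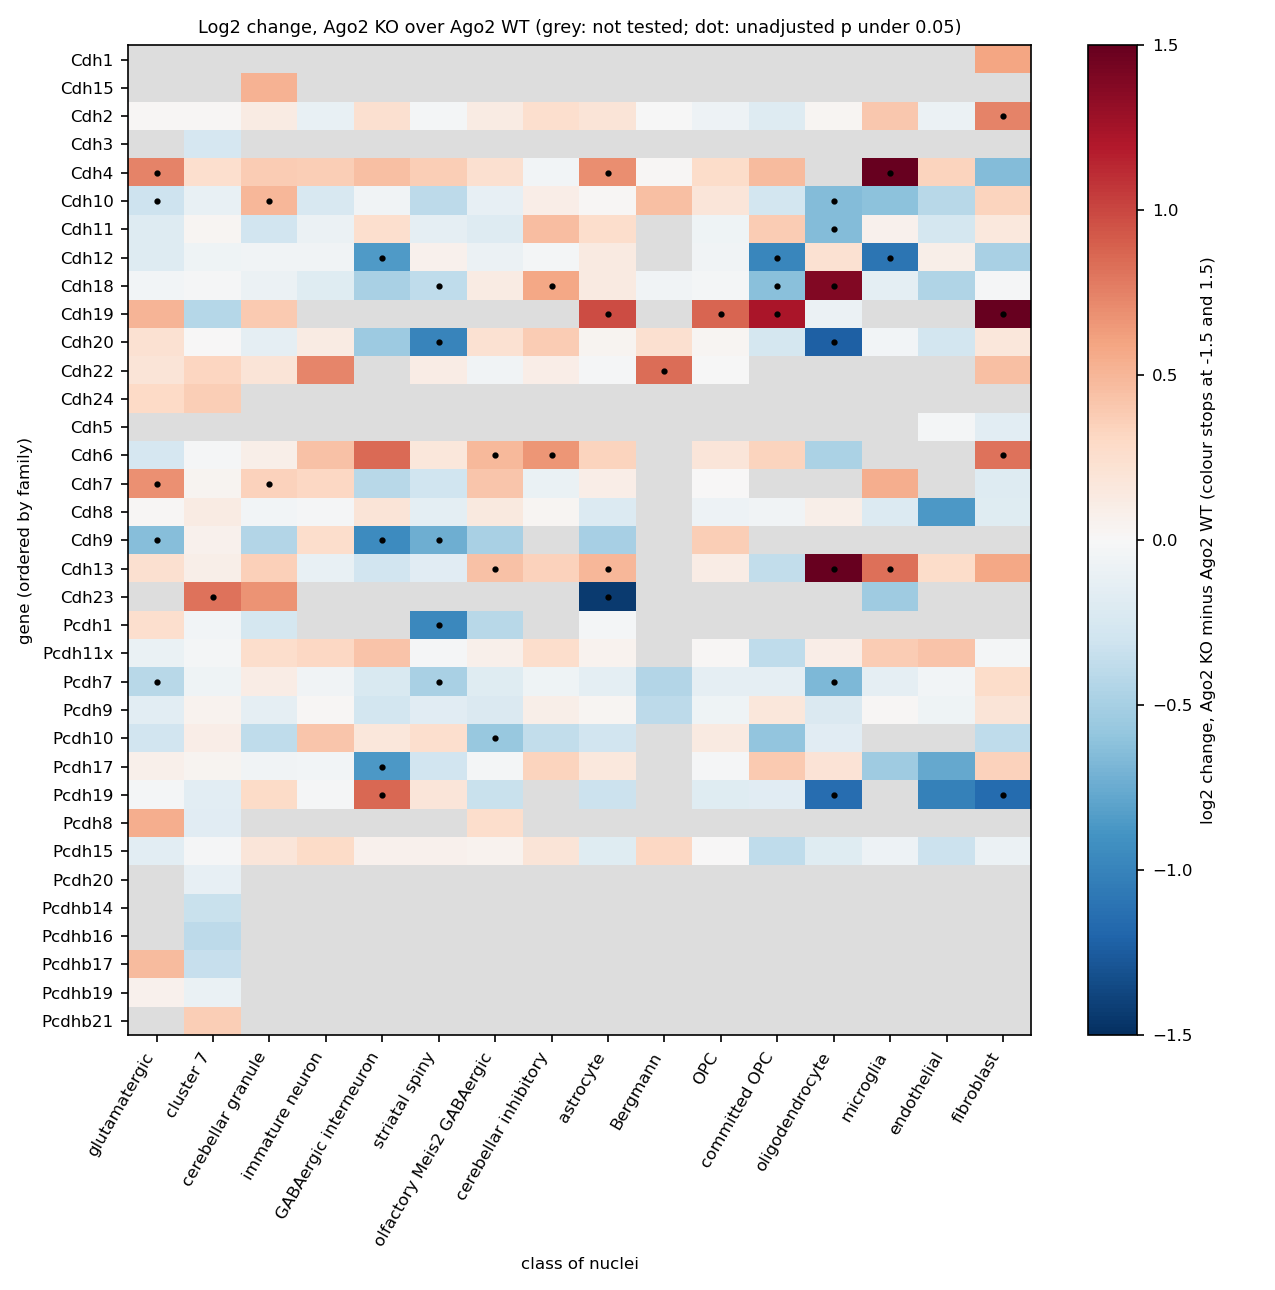
Colour gives the log2 change, Ago2 KO-labelled over Ago2 WT-labelled, of each of the 35 genes tested (down) in each of 16 classes (across), with grey where a gene was not tested and a dot where the unadjusted p was under 0.05. Cdh4 is mostly red (positive in 13 of 15 classes) and Pcdh7 mostly blue (negative in 14 of 16), and no square passed the adjusted threshold.

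Read gene by gene over the classes, Cdh4 had a positive change in 13 of 15 classes, Cdh13 in 11 of 15, Cdh6 in 10 of 13 and Cdh22 in 8 of 11. Pcdh7 had a negative change in 14 of 16 classes, Cdh18 in 12 of 16, Cdh12 in 11 of 15 and Pcdh19 in 10 of 13. The classes of a library were prepared together, so these are not independent observations, and no test was run on them. These genes were picked from the 35 tested after their signs had been seen. The share of all genes with such signs is not given here.

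In glutamatergic nuclei, Cdh4 was higher and Cdh9 lower in KO-labelled libraries, and neither passed. None of 26 genes tested was called, against 0.00899% of 11122 genes. Of the 26 genes, 5 had an unadjusted p under 0.05, where 5.36% of all genes did. The median log2 change was 0.02 over the 26 genes and -0.01 over all genes tested. Slc17a6 stood in this class at 19.55 and 18.5 CPM in KO-labelled and 16.15 and 10.0 CPM in WT-labelled libraries. It was higher in cluster 7, at 94.8 and 77.05 CPM in KO-labelled and 63.0 and 61.2 CPM in WT-labelled libraries. Immature neurons had 71.6 and 59.0 CPM of it in KO-labelled and 85.7 and 59.2 CPM in WT-labelled libraries.

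Cdh4 stood at 210 and 195 CPM in glutamatergic nuclei of KO-labelled libraries, against 129 and 106 CPM in those of WT-labelled libraries. The groups did not overlap, and the log2 change was 0.75 (SE 0.15, 95% interval 0.45 to 1.05, edgeR adjusted p = 0.309). The gap was present in the upper-layer cluster, with 247 and 221 CPM in KO-labelled and 152 and 124 CPM in WT-labelled libraries. It was also present in the deep-layer cluster, where 50.7 and 85.6 CPM in KO-labelled libraries stood against 22.8 and 25.7 CPM in WT-labelled libraries. Cdh4 passed when no filter on low counts was used (edgeR adjusted p = 0.0364), a setting that also raised the calls over all genes. Its log2 change was 0.76 without KO-labelled replicate 2 and 0.85 without WT-labelled replicate 1. A library left alone in its group is assumed to vary like the other group. Such fits are therefore given by their log2 change alone in the paragraphs on classes. For most genes only some of these fits are given, often those without the library nearer to the other group. Leaving out that library enlarges a change, so such values do not show how far the change rests on 1 library.

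Cdh9 stood at 107 and 121 CPM in KO-labelled libraries, against 185 and 161 CPM in WT-labelled libraries, with a log2 change of -0.64 (SE 0.16, 95% interval -0.95 to -0.33, edgeR adjusted p = 0.546). The gap was wider in the deep-layer cluster, at 146 and 169 CPM in KO-labelled and 472 and 312 CPM in WT-labelled libraries. In the upper-layer cluster, the values were 97.7 and 109 CPM in KO-labelled and 121 and 128 CPM in WT-labelled libraries. Both clusters had non-overlapping groups, and the difference between the clusters was not tested. Without KO-labelled replicate 2, the library of its group nearer to the WT-labelled ones, the log2 change of Cdh9 in the class was -0.78.

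Cdh7 stood at 64.0 and 52.2 CPM in KO-labelled and 29.5 and 38.5 CPM in WT-labelled libraries, Pcdh7 at 755 and 904 CPM in KO-labelled and 961 and 1188 CPM in WT-labelled libraries. Cdh10 stood at 432 and 398 CPM in KO-labelled and 523 and 472 CPM in WT-labelled libraries. None of the 3 genes overlapped between the groups, and their edgeR adjusted p-values were 0.796, 0.925 and 0.929. In this class, both KO-labelled libraries lay above both WT-labelled libraries for 8 of the 26 genes and below for 5. With 2 libraries per group such a gap is weak evidence, here and in the other classes. Its share over all genes is not given here. The median depth of glutamatergic nuclei was 3355 and 4983.5 UMIs in KO-labelled libraries and 4978.5 and 7734 UMIs in WT-labelled libraries, with overlapping ranges, and the part of depth in these values was not tested. Summed oligodendrocyte markers in these nuclei were also lower, at 223 and 233 CPM in KO-labelled and 400.1 and 351 CPM in WT-labelled libraries (6 of 13 markers below and 1 above), and their part was not tested.

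**Figure D4:**
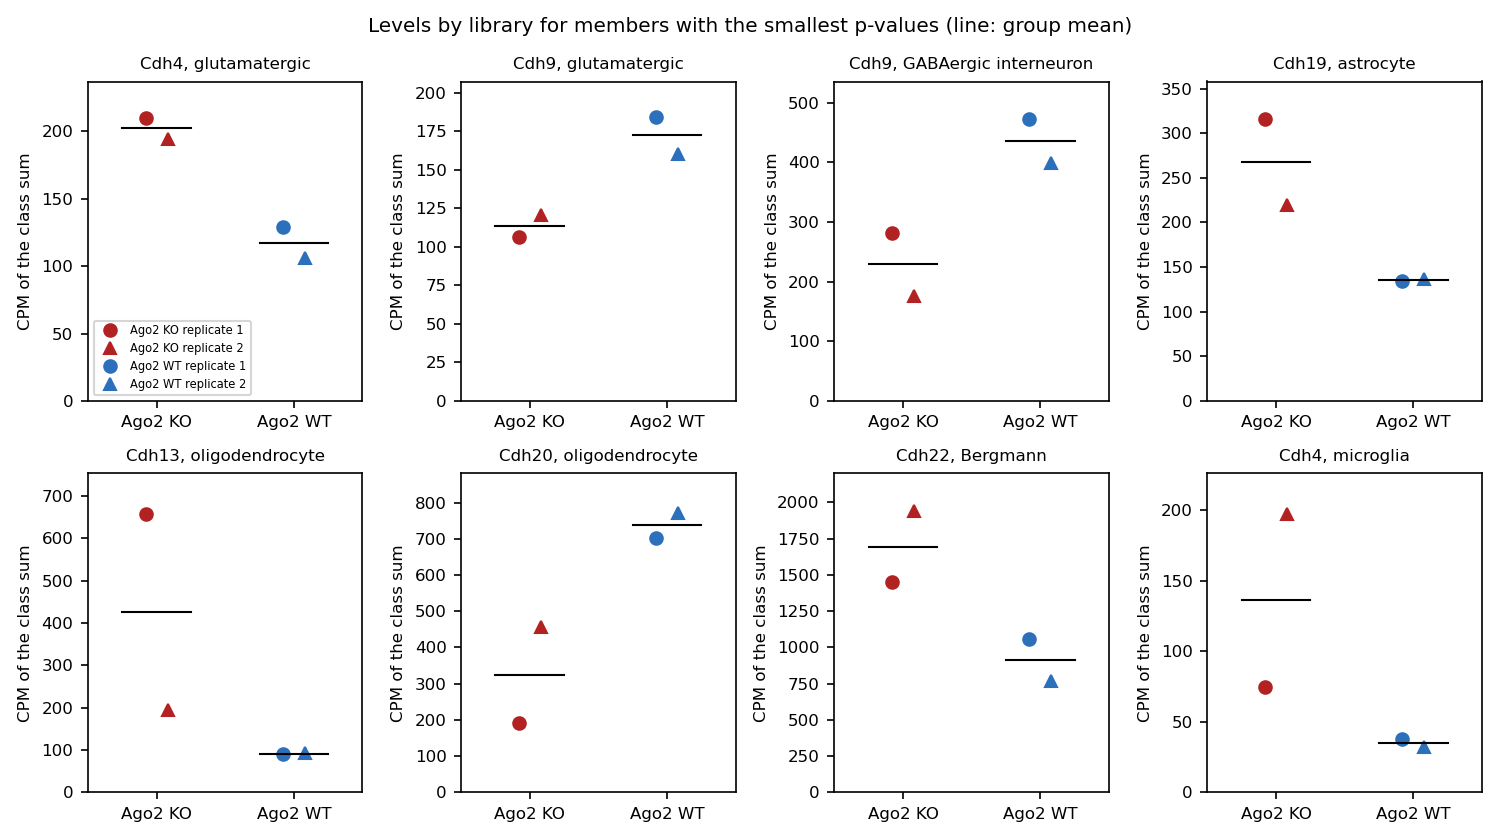
Each panel gives 1 gene in 1 class, with CPM of the class sum on a vertical axis that starts at 0, 1 point per library (left, Ago2 KO-labelled; right, Ago2 WT-labelled; circles, replicate 1; triangles, replicate 2) and a line at each group mean. The groups do not overlap in any of the 8 panels, and Cdh13 in oligodendrocytes rests on the KO-labelled replicate 1 point at 657 CPM.

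Among the other neurons, Cdh9 was again lower in KO-labelled libraries, in GABAergic interneurons and in striatal spiny neurons. In interneurons, 0 of 19 genes were called, against 0.0253% of 3949 genes. Cdh9 stood there at 282 and 176 CPM in KO-labelled and 472 and 399 CPM in WT-labelled libraries, with a log2 change of -0.94 (SE 0.27, edgeR adjusted p = 0.985). Cdh12 stood at 206 and 321 CPM in KO-labelled and 501 and 422 CPM in WT-labelled libraries (log2 -0.85, SE 0.27, edgeR adjusted p = 0.985). Neither gene overlapped between the groups. This class was small in KO-labelled libraries, with 54 and 34 nuclei against 53 and 150 in WT-labelled libraries, and the part of subtype makeup was not tested.

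In striatal spiny neurons, 0 of 21 genes were called, against 0.0304% of 6570 genes, and the 5 genes with an unadjusted p under 0.05 were all lower in KO-labelled libraries, as were 3.06% of all genes at such a p. Cdh9 stood at 95.2 and 90.4 CPM in KO-labelled and 147 and 149 CPM in WT-labelled libraries, with a log2 change of -0.74 (SE 0.20, edgeR adjusted p = 0.606). Pcdh7 stood at 560 and 762 CPM in KO-labelled and 860 and 928 CPM in WT-labelled libraries (log2 -0.49, SE 0.17, edgeR adjusted p = 0.791). Its log2 change was -0.77 without KO-labelled replicate 2, the library of its group nearer to the WT-labelled ones. Summed oligodendrocyte markers were 220 and 263 CPM in KO-labelled and 605 and 475 CPM in WT-labelled striatal nuclei (6 of 13 below, 0 above), and their part was not tested.

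In cerebellar granule neurons, 0 of 24 genes were called, as were 0 of 9522 genes in all. Cdh10 stood at 276 and 196 CPM in KO-labelled and 146 and 186 CPM in WT-labelled libraries (log2 0.50, SE 0.18, edgeR adjusted p = 0.683). Its log2 change was 0.70 without KO-labelled replicate 2, the library of its group nearer to the WT-labelled ones. The value without KO-labelled replicate 1 is not given here, and the 196 CPM of replicate 2 lay close to the 186 CPM of WT-labelled replicate 2. Cdh7, whose highest class this is, had a log2 change of 0.34 (SE 0.13, edgeR adjusted p = 0.709). Cdh10 was thus higher in KO-labelled granule neurons and lower in KO-labelled glutamatergic nuclei, without passing in either.

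In cerebellar inhibitory neurons, 0 of 18 genes were called, as were 0 of 4563 in all. Cdh6 stood at 175 and 192 CPM in KO-labelled and 114 and 110 CPM in WT-labelled libraries, and Cdh18 at 302 and 332 CPM in KO-labelled and 176 and 230 CPM in WT-labelled libraries. Their log2 changes were 0.66 (SE 0.25) and 0.57 (SE 0.23), both at an edgeR adjusted p of 0.947. In olfactory Meis2 GABAergic neurons, 0 of 22 genes were called, against 0.013% of 7717 genes. Pcdh10 stood at 105 and 142 CPM in KO-labelled and 153 and 195 CPM in WT-labelled libraries, and Cdh6 at 137 and 174 CPM in KO-labelled and 121 and 97.5 CPM in WT-labelled libraries, without overlap in either gene.

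Immature neurons and cluster 7 had no gene of 20 and 32 past the threshold, and no gene of any kind (0 of 6280 and 0 of 12562). Cdh22 in immature neurons stood at 63.2 and 98.4 CPM in KO-labelled and 25.5 and 59.2 CPM in WT-labelled libraries (log2 0.74, SE 0.35, edgeR adjusted p = 0.811). The second smallest p there belonged to Cdh4, with a log2 change of 0.37 (SE 0.22). In cluster 7, Cdh23 stood at 61.7 and 28.9 CPM in KO-labelled and 33.5 and 19.8 CPM in WT-labelled libraries, which overlapped (log2 0.82, SE 0.35). The log2 change of Cdh23 was 1.28 when KO-labelled replicate 2, the lower of its group, was left out of the 4 libraries. Cdh22 had a log2 change of 0.32 (SE 0.18). The median SE of a log2 change was 0.17 over the 32 genes of cluster 7 and 0.40 over the 16 genes of endothelial nuclei, so the precision differed between classes. Cluster 7 was also the only class tested in which beta genes beyond Pcdhb17 and Pcdhb19 could be tested.

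In glia, Cdh19 was higher in KO-labelled astrocytes, OPCs and committed OPCs, and in oligodendrocytes Cdh13 was higher and Cdh20 lower. None passed the adjusted threshold. In oligodendrocytes, the class where Cdh19 is highest, its groups overlapped (log2 -0.09, SE 0.22). In astrocytes, 0 of 23 genes were called, against 0.0459% of 8721 genes. In oligodendrocytes, 0 of 17 were called, against 0.163% of 4283 genes, and 7 of the 17 had an unadjusted p under 0.05, where 6.4% of all genes did.

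Cdh19 stood at 316 and 220 CPM in astrocytes of KO-labelled libraries, against 135 and 136 CPM in those of WT-labelled libraries. The log2 change was 0.98 (SE 0.19, 95% interval 0.60 to 1.36, edgeR adjusted p = 0.159). In committed OPCs, 0 of 18 genes were called and 0 of 4898 in all, and Cdh19 stood at 67.5 and 94.1 CPM in KO-labelled and 34.4 and 34.8 CPM in WT-labelled libraries (log2 1.22, SE 0.39, edgeR adjusted p = 0.878). In OPCs, 0 of 21 genes were called, against 0.265% of 6043 genes, and the Cdh19 groups overlapped at 65.1 and 28.8 CPM in KO-labelled and 29.2 and 22.1 CPM in WT-labelled libraries. The astrocyte and committed OPC groups did not overlap. In astrocytes, Cdh19 passed without a filter on low counts (edgeR adjusted p = 0.000283). Its log2 change there was 1.20, 0.95 and 1.00 without KO-labelled replicate 2, WT-labelled replicate 1 and WT-labelled replicate 2. The value without KO-labelled replicate 1, the highest library at 316 CPM, is not given here.

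The summed oligodendrocyte markers in astrocytes ran opposite to Cdh19, at 563 and 1318 CPM in KO-labelled and 4953 and 1705 CPM in WT-labelled libraries (6 of 13 markers below, 0 above), and their part in the Cdh19 value was not tested. WT-labelled replicate 1 also had a mitochondrial share of 1.63% in astrocytes, against 0.485% to 0.598% in the other libraries. Cdh4 in astrocytes stood at 218 and 183 CPM in KO-labelled and 153 and 96.5 CPM in WT-labelled libraries (log2 0.70, SE 0.22, edgeR adjusted p = 0.437). Without WT-labelled replicate 1, the library of its group nearer to the KO-labelled ones, its log2 change was 1.03. The direction of Cdh4 was that of glutamatergic nuclei. The second gene of smallest p in OPCs was also Cdh4, whose groups overlapped at 218 and 149 CPM in KO-labelled and 170 and 135 CPM in WT-labelled libraries. Its log2 change there was 0.27 (SE 0.22) and came to -0.002 without KO-labelled replicate 1. In committed OPCs the second was Cdh12, at 55.3 and 51.3 CPM in KO-labelled and 127 and 85.5 CPM in WT-labelled libraries.

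Cdh13 stood at 657 and 194 CPM in oligodendrocytes of KO-labelled libraries, against 90.1 and 93.5 CPM in those of WT-labelled libraries. KO-labelled replicate 1 was far above the other libraries, and the groups did not overlap. The log2 change was 2.13 (SE 0.43, 95% interval 1.27 to 2.99, edgeR adjusted p = 0.138). The 140 UMIs of KO-labelled replicate 1 lay in 38 of 70 nuclei and the largest nucleus held 7.86% of them, and KO-labelled replicate 2 had 42 UMIs in 22 of 74 nuclei. The log2 change of Cdh13 was 2.72, 2.07 and 2.18 without KO-labelled replicate 2, WT-labelled replicate 1 and WT-labelled replicate 2. It fell to 1.04 without KO-labelled replicate 1. With all 4 libraries and doublets kept, Cdh13 passed at a smaller change than 2.13 (log2 1.42, edgeR adjusted p = 0.0087). In WT-labelled libraries, 25 UMIs lay in 19 of 95 nuclei and 68 UMIs in 44 of 184 nuclei. Cdh18 was also highest in KO-labelled replicate 1, at 648 and 166 CPM in KO-labelled and 155 and 144 CPM in WT-labelled libraries (log2 1.38, SE 0.44, edgeR adjusted p = 0.596). The same library was the highest for Cdh6, Cdh8, Cdh12 and Pcdh17 and the lowest for Cdh11, Cdh20, Pcdh9 and Pcdh19. How far its oligodendrocytes differed as a whole was not tested.

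Cdh20 stood at 192 and 456 CPM in oligodendrocytes of KO-labelled libraries, against 703 and 772 CPM in those of WT-labelled libraries, with a log2 change of -1.23 (SE 0.32, 95% interval -1.86 to -0.59, edgeR adjusted p = 0.402). Cdh10 stood at 662 and 627 CPM in KO-labelled and 1038 and 922 CPM in WT-labelled libraries (log2 -0.65, SE 0.19, edgeR adjusted p = 0.538). The log2 change of Cdh20 was -2.04 without KO-labelled replicate 2 and -1.33 without WT-labelled replicate 1. Each of these 2 libraries was the one of its group nearer to the other group. The value without KO-labelled replicate 1, the lowest library at 192 CPM, is not given here, so the part of that library is left unshown. Neither gene overlapped between the groups, and both are glial cadherins by their class levels above. The astrocyte markers summed to 920 and 705 CPM in KO-labelled and 1150 and 913 CPM in WT-labelled oligodendrocytes (7 of 14 below, 0 above), and their part was not tested. Oligodendrocyte markers stood at 24734 and 22629 CPM in KO-labelled and 21581 and 18760 CPM in WT-labelled libraries. Pcdh9, the leading gene of the class, had a log2 change of -0.22 with a 95% interval of -0.67 to 0.23.

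Bergmann glia had 0 of 9 genes called, against 0.195% of 1024 genes. Cdh22, whose highest class this is, had a log2 change of 0.84 (SE 0.30, 95% interval 0.24 to 1.44, edgeR adjusted p = 0.237) without overlap between the groups. Pcdh9 stood at 6552 and 5880 CPM in KO-labelled and 7407 and 8042 CPM in WT-labelled libraries (log2 -0.39, SE 0.25, edgeR adjusted p = 0.934). Oligodendrocyte markers summed to 368 and 1464 CPM in KO-labelled and 3816 and 1728 CPM in WT-labelled Bergmann glia (6 of 13 below, 0 above), and their part was not tested.

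In microglia, 0 of 16 genes were called, as were 0 of 3615 in all. Cdh4 stood at 75.0 and 197 CPM in KO-labelled and 37.6 and 32.5 CPM in WT-labelled libraries, on 11 and 33 UMIs against 5 and 8 (log2 1.99, SE 0.56, edgeR adjusted p = 0.548). Cdh12 stood at 136 and 138 CPM in KO-labelled and 300 and 288 CPM in WT-labelled libraries (log2 -1.10, SE 0.31, edgeR adjusted p = 0.548). A single nucleus held 38 of the 71 Cdh12 UMIs of WT-labelled replicate 2. Endothelial markers summed to 95.4 and 173 CPM in KO-labelled and 398 and 252 CPM in WT-labelled microglia (6 of 14 below, 0 above), and their part was not tested.

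In vessels and fibroblasts, no cadherin or protocadherin passed the threshold, and Cdh5, the junction protein of endothelium, stood close together in the 2 groups. In endothelial nuclei, 0 of 16 genes were called and 0 of 3839 in all, and 0 of the 16 had an unadjusted p under 0.05. Cdh5 had a log2 change of -0.02, with a 95% interval of -0.98 to 0.93. Pcdh19 stood at 28.3 and 128 CPM in KO-labelled and 159 and 177 CPM in WT-labelled endothelial nuclei, and Pcdh17 at 66.1 and 80.8 CPM in KO-labelled and 147 and 106 CPM in WT-labelled nuclei. The groups did not overlap in either gene, with log2 changes of -1.01 (SE 0.52) and -0.76 (SE 0.40), both at an edgeR adjusted p of 0.988. The log2 change of Pcdh19 was -2.58 without KO-labelled replicate 2, when 3 UMIs were left in that group.

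With endothelial and mural nuclei summed as vascular, 0 of 21 genes were called, against 0.021% of 4767 genes, and 3 had an unadjusted p under 0.05, as did 5.66% of all genes. Cdh7 stood at 17.2 and 20.7 CPM in KO-labelled and 88.6 and 48.5 CPM in WT-labelled libraries, on 2 and 4 UMIs against 22 and 14 (log2 -1.79, SE 0.65, edgeR adjusted p = 0.841). Cdh8 stood at 164 and 129 CPM in KO-labelled and 310 and 204 CPM in WT-labelled libraries (log2 -0.84, SE 0.33, edgeR adjusted p = 0.871), and its direction turned at a 10% mitochondrial maximum (log2 0.069). Mural nuclei were few in KO-labelled replicate 1, with 5 nuclei against 22 to 26 in the other libraries, so the makeup of the vascular sum differed between libraries and its part was not tested.

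In fibroblasts, 0 of 22 genes were called, as were 0 of 6673 in all. Cdh19 stood at 28.6 and 75.9 CPM in KO-labelled and 22.0 and 13.6 CPM in WT-labelled libraries (log2 1.63, SE 0.55, edgeR adjusted p = 0.690). Cdh2 stood at 208 and 136 CPM in KO-labelled and 117 and 88.4 CPM in WT-labelled libraries (log2 0.75, SE 0.29, edgeR adjusted p = 0.761). The groups did not overlap in either gene, and Cdh19 had 51 UMIs in the class. Without KO-labelled replicate 1, the library of its group nearer to the WT-labelled ones, the log2 change of Cdh19 was 2.14. The value without KO-labelled replicate 2, which held 28 of the 51 UMIs, is not given here.

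An interaction term, with libraries as blocks, tested whether the genotype difference itself differed between classes. Between glutamatergic nuclei and GABAergic interneurons, 0 of 28 genes were called, against 0.0355% of 11257 genes, and 7 had an unadjusted p under 0.05, as did 5.03% of all genes. The smallest p was that of Cdh7, whose log2 change was larger in glutamatergic nuclei by 1.11 (SE 0.34, edgeR adjusted p = 0.302). Between glutamatergic nuclei and astrocytes, 0 of 26 genes were called, against 0.0166% of 12060 genes, and 3 had an unadjusted p under 0.05, as did 6.34% of all genes. The smallest p there was that of Cdh23 with a difference of 2.17 (SE 0.67, edgeR adjusted p = 0.460). Cdh4 and Cdh9 had differences between glutamatergic nuclei and interneurons of 0.31 (SE 0.24) and 0.31 (SE 0.26).

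Genes that work with cadherins were read in the same fits, and none was called. Of 18 catenins and adherens junction partners, 9 of 236 pairs of gene and class (3.81%) had an unadjusted p under 0.05, below the 5.56% of all pairs, as were the shares of the 3 lists that follow. Ptprm, a receptor phosphatase of cell contacts, had a log2 change of -1.39 in microglia (SE 0.34, edgeR adjusted p = 0.526), and Nectin1, a nectin of adherens junctions and synapses, was tested in glutamatergic nuclei at 62.8 and 45.4 CPM in KO-labelled and 30.9 and 31.5 CPM in WT-labelled libraries. Fat4, Fat3 and Clstn2 belong to other branches of the cadherin superfamily, of which 17 of 21 genes were tested and 5 of 122 pairs (4.10%) had such a p.

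Clstn2, a calsyntenin of synapses, stood at 236 and 236 CPM in cerebellar inhibitory neurons of KO-labelled libraries, against 107 and 88.3 CPM in those of WT-labelled libraries (log2 1.24, SE 0.25, edgeR adjusted p = 0.424). Fat3, a giant atypical cadherin that shapes dendrites, stood at 210 and 240 CPM in granule neurons of KO-labelled libraries, against 363 and 347 CPM in those of WT-labelled libraries (log2 -0.65, SE 0.13, edgeR adjusted p = 0.327). Neither gene overlapped between the groups. Of 16 genes of cadherin processing and protocadherin signalling, 6 of 213 pairs (2.82%) had an unadjusted p under 0.05, led by Dab1 in cerebellar inhibitory neurons (log2 -0.47, SE 0.15) and Wasf1 in granule neurons (log2 -0.45, SE 0.15). Of 14 tested regulators of the clustered genes, 3 of 173 pairs (1.73%) did, and Ctcf, the insulator protein of those clusters, gave the smallest 2, in olfactory neurons (log2 -0.65, SE 0.26) and immature neurons (log2 -0.63, SE 0.27).

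Because Ago2 acts through microRNAs, the 3′ UTRs were read for matches to 3 microRNAs that are abundant in brain. The microRNAs are shown with their seed, bases 2 to 8, in capitals, from RefSeq on GRCm38.p6, and no microRNA was measured in these libraries.
miR-9-5p: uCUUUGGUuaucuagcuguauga
miR-128-3p: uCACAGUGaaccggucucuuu
let-7a-5p: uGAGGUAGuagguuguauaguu

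A match was the reverse complement of the seed on the strand of the mRNA, ACCAAAG for miR-9-5p, CACTGTG for miR-128-3p and CTACCTC for let-7a-5p, in the longest annotated 3′ UTR of each gene. The windows below, from GRCm38 with the match in capitals, belong to 5 of the genes described above that hold a match, and were chosen after the values had been seen.
Cdh4, miR-9-5p, chr2:179898647-179898669, plus strand: ctcctgccACCAAAGtgtcagag
Pcdh7, miR-9-5p, chr5:58129441-58129463, plus strand: agggggctACCAAAGagacaaag
Pcdh17, miR-9-5p, chr14:84538590-84538612, plus strand: tagatatgACCAAAGatacaatt
Cdh6, miR-128-3p, chr15:13029296-13029318, minus strand: ttcaaaccCACTGTGctgttctg
Cdh22, let-7a-5p, chr2:165111594-165111616, minus strand: aacagcacCTACCTCgaagattt

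Cdh4 and Pcdh7 both hold a miR-9-5p match, and in glutamatergic nuclei Cdh4 was higher and Pcdh7 lower in KO-labelled libraries. Cdh9, Cdh10, Cdh12, Cdh13, Cdh18, Cdh19 and Cdh20 hold none of the 3 matches in the UTR read. Of the 26 members tested in glutamatergic nuclei, 8 (30.8%) held the miR-9-5p match, 6 (23.1%) that of miR-128-3p and 3 (11.5%) that of let-7a-5p, against 15.6%, 24.7% and 11.0% of 9893 genes tested. The members' UTRs were longer, with a median of 2160 bases against 1389 bases over all genes. The median log2 change of members with a miR-9-5p match was 0.04 and of those without it -0.01. It was 0.07 with and -0.01 without a miR-128-3p match, and 0.20 with and 0.02 without a let-7a-5p match, on 6 and 3 members with a match. Over all genes these medians lay between -0.003 and 0.007. A match is a description of the sequence and not a site shown to be bound.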

How the data were processed

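For each library, the deposited files give UMI counts (whole numbers) of every gene in every barcode. Cell Ranger 4.0.0, Seurat 3.2.3 and GRCm38 are named in the submitters' processing notes. Whether introns were counted is not given in the sources used here. Kept were barcodes of 500 UMIs or more whose mitochondrial share was under 5%. Scrublet in scanpy 1.11.5 (Python 3.11.15) scored doublets, and the highest scores were removed at 0.8% per 1000 barcodes. The nuclei were clustered on 2000 variable genes, 30 components and 15 neighbours (Leiden, igraph 0.11.9, resolution 1, 27 clusters), and clusters were named from marker lists with at least 3 detected markers. The 92 genes and all gene lists were chosen with earlier results of these data known. Nuclei are not replicates, so counts were summed per library and class, and classes with at least 20 nuclei in every library were tested. KO-labelled libraries were compared with WT-labelled libraries by edgeR 4.0.16 (quasi-likelihood, filterByExpr, TMM, two-sided, R 4.3.3), with Benjamini-Hochberg adjustment over all genes of a class at 0.05. DESeq2 1.42.0, another scaling, no filter, libraries left out, the replicate number as a block and 4 other clusterings were alternatives. The fits were tested on simulated data first.

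Genes were named by rule: any gene past the threshold, the 2 with the smallest p in each class, the 25 with the most UMIs, the leading gene of each class, the 3 most counted of each protocadherin cluster and the 2 with the smallest p in each list of other genes. Genes outside the rule were named after their values were seen. The library sizes are 10845009 to 29317266 UMIs before filtering, and levels with few UMIs carry a large counting error. Same-numbered libraries deviated together with correlations from -0.11 to 0.08 over the classes, so the numbers do not pair them. UTRs came from the GENCODE M21 annotation.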

Additional observations from a re-analysis of the deposited data

Results flagged for a closer look

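The changes below have opposite signs in 2 classes, with every KO-labelled library above every WT-labelled library in the first class and below in the second. Both changes also had an unadjusted p under 0.05 (edgeR quasi-likelihood), and opposite pairs without such a p in both classes are not listed. None of these differences was tested itself. Such pairs were looked for over all cadherins and protocadherins in the separate classes tested, where chance gives some.

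Cdh10 had a log2 change of 0.50 in cerebellar granule neurons. It was -0.31 in glutamatergic nuclei, a difference of 0.81, and -0.65 in oligodendrocytes, a difference of 1.15. Cdh18 had a log2 change of 0.57 in cerebellar inhibitory neurons and 1.38 in oligodendrocytes, against -0.63 in committed OPCs and -0.38 in striatal spiny neurons. The differences were 1.21 and 0.95 for cerebellar inhibitory neurons and 2.02 and 1.76 for oligodendrocytes, and the oligodendrocyte value rests on the high KO-labelled replicate 1 (648 CPM). Pcdh19 had a log2 change of 0.86 in GABAergic interneurons, against -1.16 in fibroblasts and -1.14 in oligodendrocytes, differences of 2.02 and 2.0.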

How the results depend on the processing

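No member was called in any class under DESeq2, RLE scaling, a 10% mitochondrial maximum, Leiden resolution 2 or with the members allowed among the variable genes. With no filter on low counts, 1 was called in astrocytes (Cdh19), 1 in glutamatergic nuclei (Cdh4) and 3 in oligodendrocytes (Cdh13, Cdh18 and Cdh20). With doublets kept, 1 was called in oligodendrocytes (Cdh13), with 34 calls over all genes. With libraries left out in turn, the calls ranged from 0 to 2 in astrocytes, glutamatergic nuclei and fibroblasts, from 0 to 3 in oligodendrocytes and from 0 to 1 in cerebellar granule neurons, cluster 7, endothelial nuclei and striatal spiny neurons. In those fits a library alone in its group is assumed to vary like the other group. Over all genes and classes, 34 calls became 1367 without KO-labelled replicate 2, 398 without KO-labelled replicate 1, 271 and 147 without WT-labelled replicates 2 and 1, 531 with no filter and 82 at the 10% maximum, and the cause was not tested.

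With the replicate block, 2 members were called in oligodendrocytes (Cdh13 and Cdh20) and none in the other classes, and calls over all genes came to 207. The numbers share no animal or batch by the labels, so the block is not read as a pairing. In fibroblasts, where same-numbered libraries ran against each other, a crossed block added after seeing the data called 0 members.

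Of 397 alternative values for 34 named pairs of gene and class, 371 kept their direction and side of the threshold and 24 passed it. Reversed were Cdh4 in OPCs when libraries were left out in turn (log2 -0.002 to 0.528, the lowest without KO-labelled replicate 1) and Cdh8 in vascular nuclei at the 10% maximum (log2 0.069). The highest class of the 26 ranked genes was kept for 18 at the 10% maximum, 23 with doublets kept, 23 at resolution 2 and 22 with members allowed among the variable genes. Cdh18 moved in each of these 4, where cluster 7 was not ranked, and at the 10% maximum Cdh2 and Cdh5 were highest in a cluster named blood. In the classes with few UMIs, such as mural nuclei, depth limits every level.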
